A study of Homo sapiens with 12 samples.

Results

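The genes described here are 10 genes of ferroptosis and of the thioredoxin antioxidant system (GPX4, AIFM2, SLC7A11, TXN, TXNRD1, NFE2L2, KEAP1, HMOX1, FTH1 and TFRC). They were chosen by name, with earlier results of these data known. Every row of the 6 site lists that carries one of these gene names was taken. A site was listed for 8 of the 10, among 10240 genes with a site in the series. The series maps N4-acetylcytidine (ac4C), an acetylated cytidine of RNA, in HK-2 cells, an immortalized line of human proximal tubule epithelium. RNA was fragmented, fragments bound by an anti-ac4C antibody were pulled down (IP), and IP and starting RNA (input) were sequenced. The 12 samples are 3 IP and input pairs of cells labelled NAT10 knockout (KO) and 3 pairs of wild-type control cells (WT), with no treatment given for either. The series text speaks of a knockdown where the labels say knockout, and neither gives the method of NAT10 loss or the number of clones.

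Ferroptosis is an iron-dependent form of cell death in which membrane lipids are oxidized. Cells hold it back with glutathione made from imported cystine, with the lipid peroxidase GPX4, with the ubiquinone reductase AIFM2 (also called FSP1), and by keeping iron bound in ferritin. The thioredoxin system (TXN and its reductase TXNRD1) is the parallel NADPH-driven route that keeps protein thiols reduced, and the transcription factor NRF2 (encoded by NFE2L2 and held in check by KEAP1) drives many genes of both routes. Proximal tubule cells are known to be prone to ferroptosis after injury. NAT10 is the enzyme that writes ac4C, so the sites of these transcripts in KO cells are set against those in WT cells. Whether a site called in the WT lists alone depends on NAT10 was not tested.

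Each IP and input pair gave 1 list of sites. The KO lists held 13818, 17872 and 19136 sites and the WT lists 17541, 17107 and 15289. The means were 16942 sites per KO list and 16646 per WT list, so called sites were not fewer in KO. A list holds no reads. Its sequencing depth is therefore unknown, and a missing site cannot be told from a transcript too scarce to call. No label says whether the replicates were grown as separate cultures, so the spread between lists may be technical. The lowest false discovery rate the authors gave any site was 11.3% to 16.1% in the KO lists and 29.2% to 42.6% in the WT lists. NAT10 itself held 2, 5 and 9 sites in the KO lists and 11, 11 and 8 in the WT lists (exact permutation p = 0.2), a difference of -4.67 sites that was -3 without KO replicate 1. These counts do not check the knockout label, which rests on the submitters' word. Of 15 proximal tubule markers, 8 had a site in some list, while SLC34A1, SLC5A2, SLC22A6 and AQP1 had none, and of 18 markers for other cell types (endothelium, podocyte, distal tubule, collecting duct, fibroblast, leukocyte) PDGFRB, LYZ and ATP6V1B1 had one.

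Site calls differed from gene to gene. The lipid radical defences GPX4 and AIFM2 held sites in every WT list and in no KO list. The thioredoxin pair TXN and TXNRD1 held sites in every KO list and in no WT list. TFRC, the iron importer, held more sites in every KO list than in any WT list. KEAP1 and HMOX1 held sites in all 6 lists, SLC7A11 in WT replicates 1 and 2, and NFE2L2 and FTH1 in none. The site counts of 5 genes thus did not overlap between the genotypes (exact permutation p = 0.1 for each, the smallest that 3 against 3 lists allow, and 0.214 after Benjamini-Hochberg adjustment over all 10240 genes). No gene passed a threshold of 0.05. Counts without overlap were common in the series: 46.8% of all genes with a site showed them, 23.7% with more sites in KO and 23.1% with fewer. Sites in every KO list and no WT list, as in TXN and TXNRD1, were found for 14.9% of genes, and sites in every WT list and no KO list, as in GPX4 and AIFM2, for 11.8%. Against that background, 3 genes with more and 2 with fewer KO sites, of 8 with any site, do not set these genes apart, and the values below describe single transcripts.

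**Figure D1:**
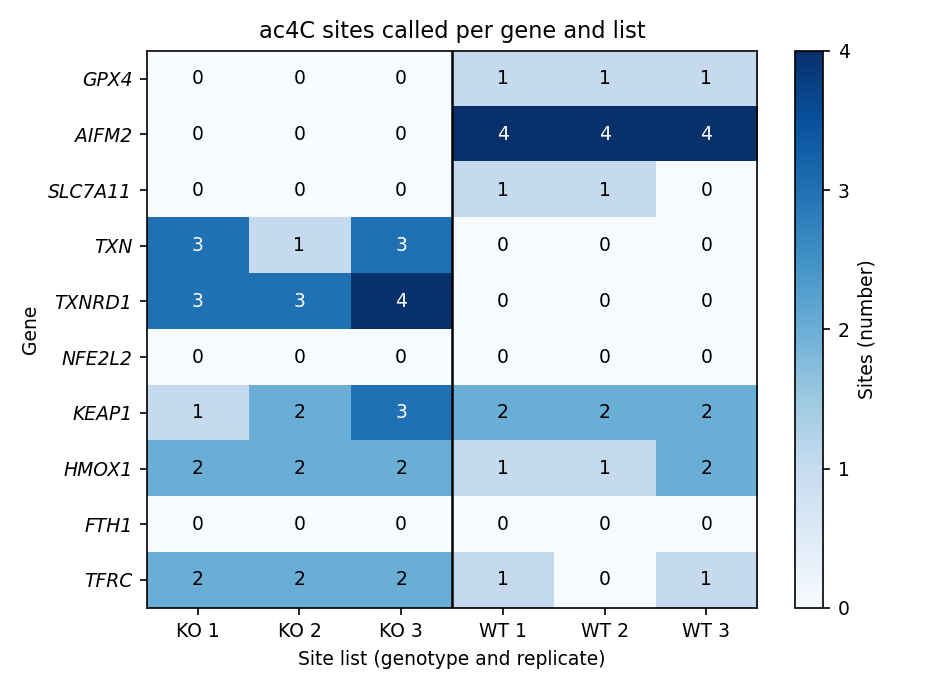
Number of called ac4C sites (colour and printed number) for each of the 10 genes (rows) in each site list (columns, KO lists left of the line and WT lists right of it). GPX4 and AIFM2 are filled only on the WT side, TXN and TXNRD1 only on the KO side, and NFE2L2 and FTH1 are 0 in all 6 lists.

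GPX4, the selenoprotein that reduces lipid hydroperoxides inside membranes, held no site in any KO list and 1 in each WT list. The authors assigned it to the start codon, at 1104055 to 1104126 of chromosome 19 (all site positions are in the files' own coordinates). Its fold enrichment of IP over input was 5.35, 5.33 and 6.47 in WT replicates 1, 2 and 3. These folds were modest within their lists, where 32.5%, 31.5% and 38.1% of sites had a lower one. Exactly 1 site in each WT list, with none in KO, was found for 678 genes.

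AIFM2, which regenerates the lipid radical trap ubiquinol independently of GPX4, held no site in any KO list and 4 in each WT list. Such a pattern, with at least 4 sites in every WT list and none in KO, was shown by 32 of the 10240 genes. The 4 sites lay at the same places in all WT lists, 3 in the coding sequence and 1 over the stop codon. The coding site on chromosome 10 from 71880263 to 71880355 had folds of 54.9, 35.3 and 47.3 in WT replicates 1, 2 and 3. The coding site from 71876492 to 71876530, only 39 bases long, had folds of 46.1, 29.9 and 47.0. These were high within the lists: 92.6% to 95.4% of sites in the same list had a lower fold than the 93-base site and 90.9% to 94.7% than the 39-base site. The third coding site, from 71883161 to 71883276, had folds of 11.8, 9.05 and 10.2, and the stop codon site, from 71873451 to 71874046 at its widest, 9.76, 13.6 and 20.3.

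SLC7A11, the cystine importer that feeds glutathione synthesis, held no site in any KO list and 1, 1 and 0 in WT replicates 1, 2 and 3. It was the only one of the 10 genes with a site in the 3' UTR, on chromosome 4 from 139089216 to 139089476. The folds were 3.72 and 4.81, and the WT and KO counts overlapped at 0 (exact permutation p = 0.4). Only the site in WT replicate 2 reached a fold of 4.

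TXN, the small dithiol protein that reduces peroxiredoxins and ribonucleotide reductase, held 3, 1 and 3 sites in the KO lists and none in any WT list. A coding site on chromosome 9 from 113013638 to 113013742 was called with identical ends in all KO lists, at folds of 5.45, 4.87 and 4.83. Sites over the start codon and the stop codon were called in KO replicates 1 and 3 only, at folds of 3.59 and 3.43 and of 2.92 and 2.69. When a fold of 4 or more was asked for, TXN held 1 site in each KO list, so the difference was 1 in place of 2.33 sites. RefSeq lists 7 pseudogene copies of TXN, and no source used here says how reads shared with them were counted.

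TXNRD1, the selenoprotein reductase that recharges thioredoxin with NADPH, held 3, 3 and 4 sites in the KO lists and none in any WT list. At least 3 sites in every KO list and none in WT were found for 126 genes. The strongest lay at the 5' end of the transcript on chromosome 12, between 104680460 and 104681128, with folds of 15.3, 8.55 and 9.60 in KO replicates 1, 2 and 3. The authors assigned it to the start codon in KO replicate 1 and to the 5' UTR in KO replicates 2 and 3, where it was also attached to another transcript. A coding site of 73 bases, from 104707023 to 104707095, had folds of 7.76, 5.51 and 5.65. The coding site from 104705068 to 104705190 was weak, with folds of 2.84, 2.41 and 2.80, and a stop codon site was called in KO replicate 3 alone, at a fold of 2.40. At a fold of 4 or more the gene held 2 sites in every KO list, a difference of 2 in place of 3.33.

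**Figure D2:**
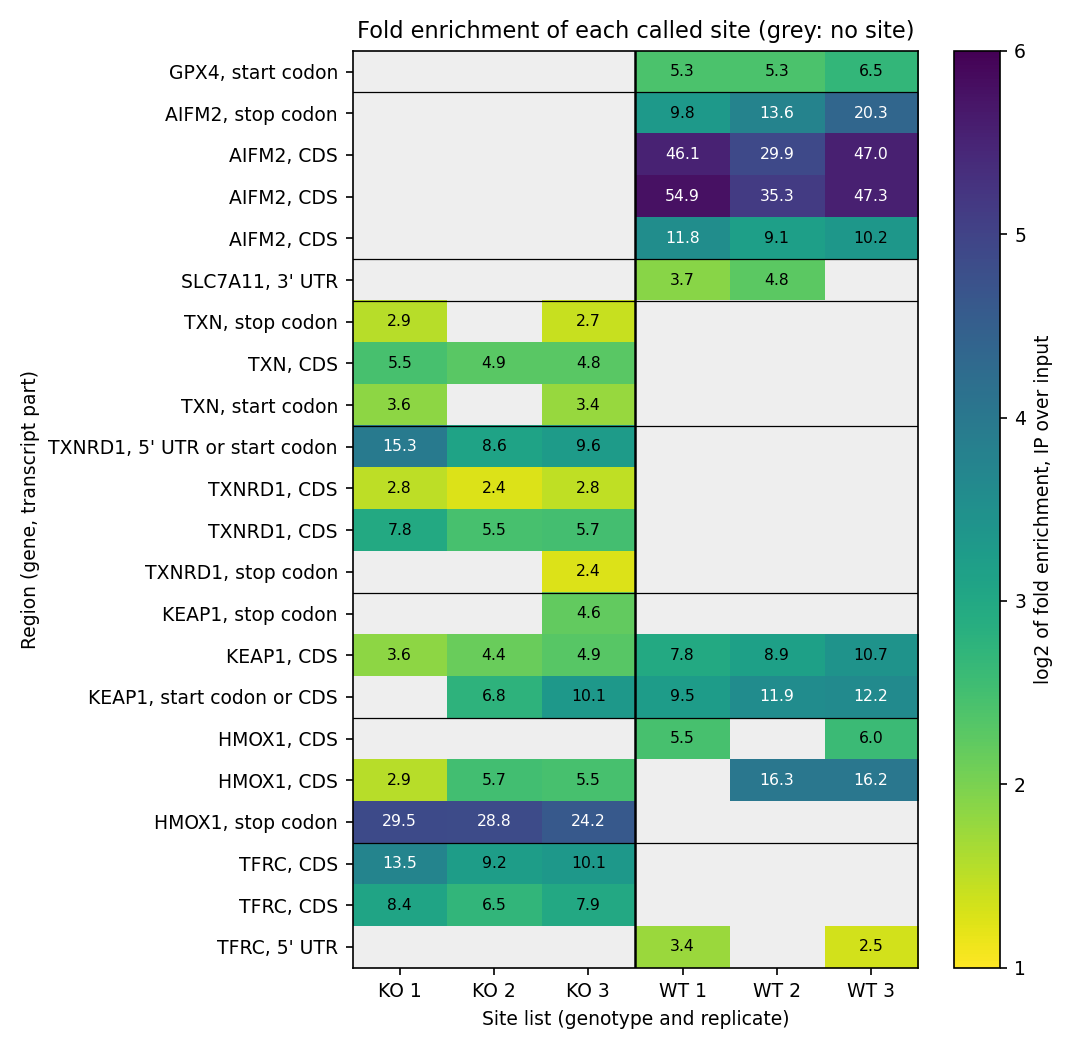
Fold enrichment of IP over input (printed, and as log2 in the colour) of every called site of the 8 genes with a site, by region (rows, with gene and transcript part) and by site list (columns, KO left of the line, WT right). Grey marks no called site. The GPX4, AIFM2 and SLC7A11 rows are filled only in WT lists and the TXN and TXNRD1 rows only in KO lists, while the coding region of KEAP1 is filled in all 6.

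NFE2L2, the transcription factor NRF2 itself, had no site in any of the 6 lists. Its partner KEAP1, the adaptor that hands NRF2 to a ubiquitin ligase, was listed in all of them, with 1, 2 and 3 sites in the KO lists and 2 in each WT list. Its means were 2 ± 1 in KO lists and 2 ± 0 in WT lists (SD over 3 lists; exact permutation p = 1). A coding site on chromosome 19 from 10602253 to 10602938 was the only region of the 10 genes called in all 6 lists. Its folds were 3.61, 4.40 and 4.93 in the KO lists and 7.83, 8.87 and 10.7 in the WT lists. A site around the start codon, from 10610071 to 10610756 at its widest, had folds of 6.81 and 10.1 in KO replicates 2 and 3 and of 9.48, 11.9 and 12.2 in the WT lists, and was not called in KO replicate 1. A stop codon site, from 10596898 to 10597494, was called in KO replicate 3 alone at a fold of 4.58. Each fold is scaled within its own IP and input pair, so these values are set side by side without a test. KEAP1 had no KO replicate 1 site at a fold of 4 or more.

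HMOX1, the NRF2 target that breaks down haem and frees its iron, held 2 sites in each KO list and 1, 1 and 2 in the WT lists (exact permutation p = 0.4). Its counts overlapped, but the places of its sites differed. A site over the stop codon on chromosome 22, between 35789657 and 35789949, was called in every KO list and in no WT list. Its folds were 29.5, 28.8 and 24.2 in KO replicates 1, 2 and 3, above 85.7% to 90.2% of the sites in those lists. Its false discovery rates lay at or just above the lowest of each list (14.1%, 16.1% and 11.3%). That does not single it out, since its score of 3100 was held by 2171, 1798 and 1508 sites of those lists. Over all sites of the 10 genes the median false discovery rate was 50.1%, 52.9% and 43.7% in the KO lists and 56.7%, 54.6% and 60.1% in the WT lists. Over every site of each list the median was higher, at 75.3%, 62.2% and 47.6% in KO and 61.1%, 63% and 64.9% in WT. Of the 64 sites of the 10 genes, 7 were at 100%, a share that was not counted over all sites. Those 7 were a coding site each of HMOX1, KEAP1 and TXNRD1 and the TXN stop codon site in KO replicate 1, the same TXNRD1 coding site in KO replicate 2, an HMOX1 coding site in WT replicate 1 and the TFRC 5' UTR site in WT replicate 3. A coding site from 35785857 to 35785954 was shared by the genotypes, at folds of 2.91, 5.69 and 5.52 in the KO lists and of 16.3 and 16.2 in WT replicates 2 and 3. A further coding site, between 35782678 and 35783169, was called in WT replicates 1 and 3 alone, at folds of 5.48 and 6.05. Without WT replicate 3 the KO and WT counts of HMOX1 did not overlap (2 per KO list, 1 in each remaining WT list).

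FTH1, the ferritin heavy chain that oxidizes and stores iron, had no site in any list. RefSeq lists 27 pseudogene copies of FTH1, and the treatment of reads shared with them is likewise not given. TFRC, the receptor that takes up transferrin-bound iron and whose transcript is a classic target of the iron regulatory proteins, held 2 sites in each KO list and 1, 0 and 1 in the WT lists, means of 2 ± 0 in KO lists and 0.667 ± 0.577 in WT lists (SD over 3 lists; exact permutation p = 0.1). The KO and WT sites lay in different parts of the transcript. In KO, a coding site on chromosome 3 from 195791208 to 195791299 had folds of 13.5, 9.24 and 10.1, and a coding site from 195792314 to 195792417 had folds of 8.44, 6.54 and 7.86. The WT site lay in the 5' UTR, from 195808761 to 195808961, at folds of 3.36 and 2.54 in WT replicates 1 and 3. At a fold of 4 or more no WT site remained and every KO list kept 2, a difference of 2 in place of 1.33 sites.

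Merged by overlap, the sites of the 8 genes formed 22 regions. Of these, 7 were called in every KO list but never in WT, 5 in every WT list but never in KO, and 1 in all 6. The other 9 were called in some lists only. Over all 35951 regions of the series the same classes made up 20.8%, 21.8% and 8.01%. A site in both genotypes was found in 3 of the 22 regions, 2 in KEAP1 and 1 in HMOX1, and in 19.1% of all regions. In 15 of the 22, the start and end were identical to the base in at least 2 lists, which was not counted over all regions. By part of the transcript, 60.0% of the 35 KO sites and 58.6% of the 29 WT sites lay in the coding sequence, against 56.2% of all KO and 56.6% of all WT sites. Stop codon sites numbered 7 of 35 in KO, in HMOX1, KEAP1, TXN and TXNRD1, and 3 of 29 in WT, all in AIFM2, which is 20% and 10.3%, against 13.4% of all KO and 13.7% of all WT sites. A region counts once per list here, so 3 of the 7 are the HMOX1 region and the 3 in WT are a single AIFM2 region. With each region counted once per genotype, the coding share was 50% in KO and 63.6% in WT. The WT share counts the KEAP1 region around the start codon as coding. That is its label in WT replicate 1, while WT replicates 2 and 3 give the start codon.

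In the KO lists 4 of 11, 3 of 10 and 5 of 14 sites lay at or above their list's median fold, and in the WT lists 6 of 10, 7 of 9 and 7 of 10. AIFM2 carried most of the WT counts: without it they were 2 of 6, 3 of 5 and 3 of 6, while the KO counts, to which it gives no site, stay as they are. The highest WT folds were those of AIFM2 in each list, and the highest KO folds those of the HMOX1 stop codon site in each list.

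The files hold no RNA sequence and no genome came with them, so the acetylated stretches themselves are not printed. The one sequence feature that could be read is upstream of the transcripts: the antioxidant response element through which NRF2 acts, searched by its core TGACNNNGC on both strands in RefSeq's promoter windows (GRCh38.p14, 250 bases before to 50 after a transcript start). Windows were found for 7 of the 10 genes, 12 in all. SLC7A11, HMOX1 and FTH1 had no window, so they were not searched. The core was present in 4 of the 12, belonging to AIFM2, KEAP1 and TXNRD1, and in 13.3% of all 35116 windows. The windows of AIFM2 and TXNRD1 are shown because both hold the core and their site counts did not overlap between genotypes, in opposite directions, with the core in capitals (a match on the other strand appears as its reverse complement).
AIFM2 (chr10:70132776-70133075, minus strand): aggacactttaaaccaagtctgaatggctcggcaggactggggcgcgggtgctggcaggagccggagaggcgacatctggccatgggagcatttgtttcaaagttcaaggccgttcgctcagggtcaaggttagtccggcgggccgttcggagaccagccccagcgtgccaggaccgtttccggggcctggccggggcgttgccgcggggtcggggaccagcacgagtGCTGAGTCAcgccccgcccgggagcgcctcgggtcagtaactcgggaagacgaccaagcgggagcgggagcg
TXNRD1 (chr12:104215529-104215828, plus strand): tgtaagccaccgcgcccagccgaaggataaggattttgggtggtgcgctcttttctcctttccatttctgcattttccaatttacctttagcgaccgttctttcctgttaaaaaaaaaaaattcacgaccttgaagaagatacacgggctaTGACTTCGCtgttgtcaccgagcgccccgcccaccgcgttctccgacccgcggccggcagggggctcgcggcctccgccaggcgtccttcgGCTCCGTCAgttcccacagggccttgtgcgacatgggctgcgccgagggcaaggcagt
TXNRD1, second start (chr12:104286782-104287081, plus strand): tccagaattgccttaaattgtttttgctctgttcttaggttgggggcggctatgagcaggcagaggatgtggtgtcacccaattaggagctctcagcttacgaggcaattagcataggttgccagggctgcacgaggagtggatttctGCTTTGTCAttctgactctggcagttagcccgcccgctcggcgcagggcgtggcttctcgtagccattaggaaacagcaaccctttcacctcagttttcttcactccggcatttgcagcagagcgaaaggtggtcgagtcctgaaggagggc
The AIFM2 window holds 1 match, GCTGAGTCA, and the TXNRD1 windows hold 2 and 1. A gene with sites in WT lists alone and a gene with sites in KO lists alone thus both have the core. No match was found in the windows of GPX4, TXN, NFE2L2 and TFRC. A match describes these letters only, and the site lists measure acetylated RNA, not binding or transcription.

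The surrounding pathway was described with 140 further genes in 6 groups, also chosen with earlier results of these data known. A site was listed for 104 of them, in 72, 75 and 83 genes in the KO lists and 79, 82 and 77 in the WT lists. Of the 104, 14 had more sites in every KO list than in any WT list (13.5%, against 23.7% of all genes) and 27 had fewer (26.0%, against 23.1%). The median difference of KO minus WT was -0.333 sites over the 104 genes and 0 over all genes. The group shares rest on 9 to 23 genes each.

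**Figure D3:**
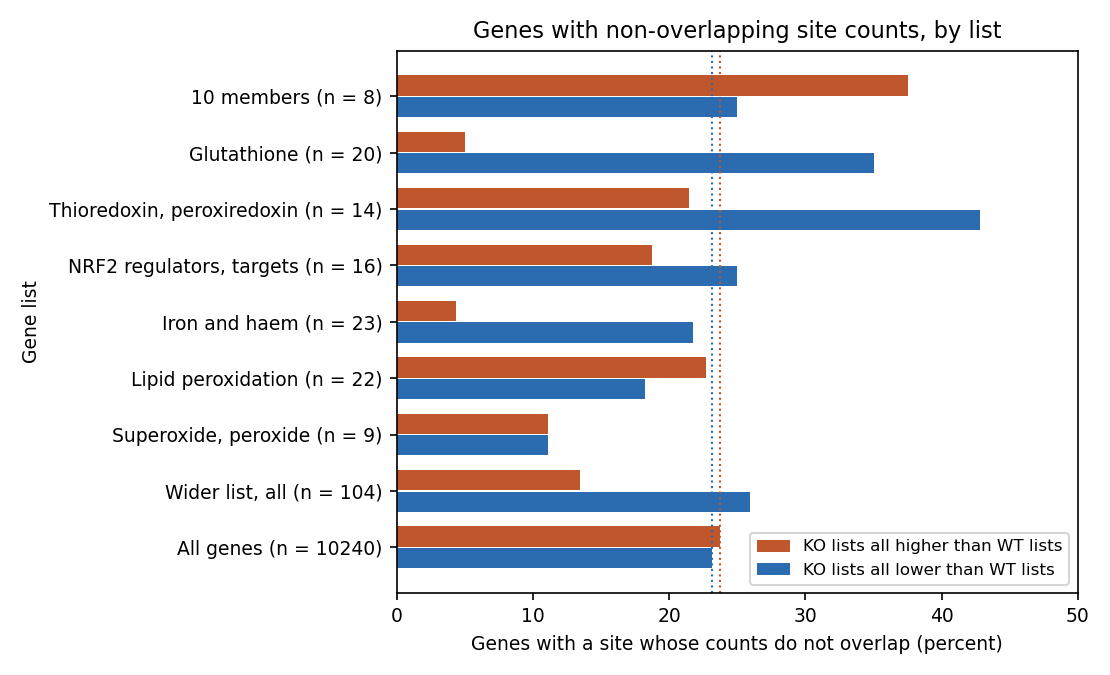
Percent of the genes with a site whose 3 KO counts all lie above (upper bar) or all below (lower bar) their 3 WT counts, for the 10 genes, for the 6 groups and the whole of the wider list, and for all genes; dotted lines repeat the values of all genes, 23.7% and 23.1%. The glutathione and iron groups have short upper bars, at 5% and 4.35%.

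In glutathione metabolism, 20 of 30 genes had a site. Of these, 1 had more KO sites (5%, against 23.7% of all genes) and 7 had fewer (35%, against 23.1%). GSS, which completes glutathione synthesis, held 0, 1 and 1 sites in the KO lists and 9, 8 and 8 in the WT lists, the widest gap of the wider list. SLC3A2, the heavy chain that carries SLC7A11 to the membrane, held 2, 2 and 3 in KO and 6 in each WT list. SLC1A5, a glutamine transporter, held 1 in each KO list and 4 in each WT list. GGT1, which cleaves extracellular glutathione and belongs to a family of near-identical copies, held 2, 3 and 3 in KO and 5, 5 and 6 in WT. The others with fewer KO sites were CBS, GLRX3 and ME1, but the GLRX3 difference of -1.67 became 1 at a fold of 4 or more, and 0 at a score of 100 or more and at equal list length. PGD, an NADPH-producing enzyme of the pentose phosphate pathway, held 1, 1 and 2 sites in KO and none in WT, with folds of at most 3.39, so this call ended at a fold of 4 or more.

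Among thioredoxin-related and peroxiredoxin genes, 14 of 22 had a site. Of these, 3 had more KO sites (21.4%, against 23.7% of all genes) and 6 had fewer (42.9%, against 23.1%). PRDX5, a peroxiredoxin of mitochondria and peroxisomes, held 3, 3 and 4 sites in KO and 1 in each WT list. PRDX3, the mitochondrial peroxiredoxin, held 1, 2 and 2 in KO and none in WT, and MSRB2, a mitochondrial methionine sulfoxide reductase, 1 in each KO list and none in WT. On the other side, TXNDC5, a disulfide isomerase of the endoplasmic reticulum, held 0, 0 and 2 in KO and 5, 4 and 4 in WT. TXNL1 held none in KO and 2 in each WT list, and MSRB3 1, 2 and 0 in KO and 3 in each WT list. TXNRD2, the mitochondrial counterpart of TXNRD1, was among the remaining 3, with PRDX4 and SRXN1. It held none in KO and 1 site in each WT list. The PRDX4 call ended under the fold, score and equal length settings (a fold of 4 or more, a score of 100 or more, or every list kept to its 13818 sites of highest score), those of TXNDC5 and MSRB3 under the score and equal length settings, and those of TXNRD2, TXNL1 and SRXN1 under the score setting alone.

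NRF2 regulators and targets had a site in 16 of 19 genes. Of these, 3 had more KO sites (18.8%, against 23.7% of all genes) and 4 had fewer (25%, against 23.1%). BTRC, a substrate adaptor that can bring NRF2 to degradation without KEAP1, held 3 sites in each KO list and 1, 1 and 0 in WT. BACH1, the repressor that competes with NRF2 at HMOX1, held 2 in each KO list and 1, 0 and 0 in WT, and RBX1, the RING subunit of the KEAP1 ligase, 1 in each KO list and none in WT, a call that ended under the fold, score and equal length settings. CUL3, the scaffold of the same ligase, was on the other side, with none in KO and 1, 1 and 2 sites in WT. OSGIN1, an NRF2 target, held none in KO and 3 in each WT list. Of the small MAF partners of NRF2, MAFF held 0, 0 and 1 in KO and 3, 3 and 2 in WT, and MAFK held 0, 1 and 0 in KO and 2 in each WT list. The counts of the third, MAFG, overlapped, with 2 in each KO list and 2, 1 and 2 in WT.

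Iron and haem genes had a site in 23 of 27. Of these, 1 had more KO sites (4.35%, against 23.7% of all genes) and 5 had fewer (21.7%, against 23.1%). SLC11A2 (DMT1), which moves ferrous iron out of endosomes, held 1, 2 and 2 in KO and 6 in each WT list. FBXL5, the iron-sensing ligase subunit that degrades IREB2, held 1 in each KO list and 5, 4 and 3 in WT. TF, encoding transferrin, held none in KO and 2, 3 and 2 in WT. The iron chaperone gene PCBP1 and FECH, the last enzyme of haem synthesis, completed the 5. SLC25A37, a mitochondrial iron importer, held 1 in each KO list and none in WT.

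Genes of membrane lipid oxidation had a site in 22 of 33. Of these, 5 had more KO sites (22.7%, against 23.7% of all genes) and 4 had fewer (18.2%, against 23.1%). All 5 with more had none in WT. They were the fatty acid desaturase genes FADS1, FADS2 and SCD, the cytochrome P450 reductase gene POR, which feeds lipid oxidation, and DHODH, a mitochondrial ubiquinone-reducing enzyme. FADS1 held 3, 4 and 6 sites in the KO lists, and the other 4 held 2 to 4. PLA2G6, a phospholipase, held none in KO and 3, 3 and 2 in WT. MBOAT1 held none in KO and 2 in each WT list, LPCAT3, which loads polyunsaturated chains onto phospholipids, 1 in each KO list and 3, 3 and 2 in WT, and SQLE, of cholesterol synthesis, none in KO and 1, 2 and 1 in WT. The LPCAT3 call ended under the fold, score and equal length settings. All 9 genes of the superoxide and peroxide group had a site, 1 with more and 1 with fewer KO sites (11.1% each, against 23.7% and 23.1%). SOD2, the mitochondrial superoxide dismutase, held 3, 4 and 3 in KO and 2, 1 and 1 in WT. PDIA6, a protein disulfide isomerase placed in this group, held 1, 0 and 0 in KO and 2 in each WT list.

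**Figure D4:**
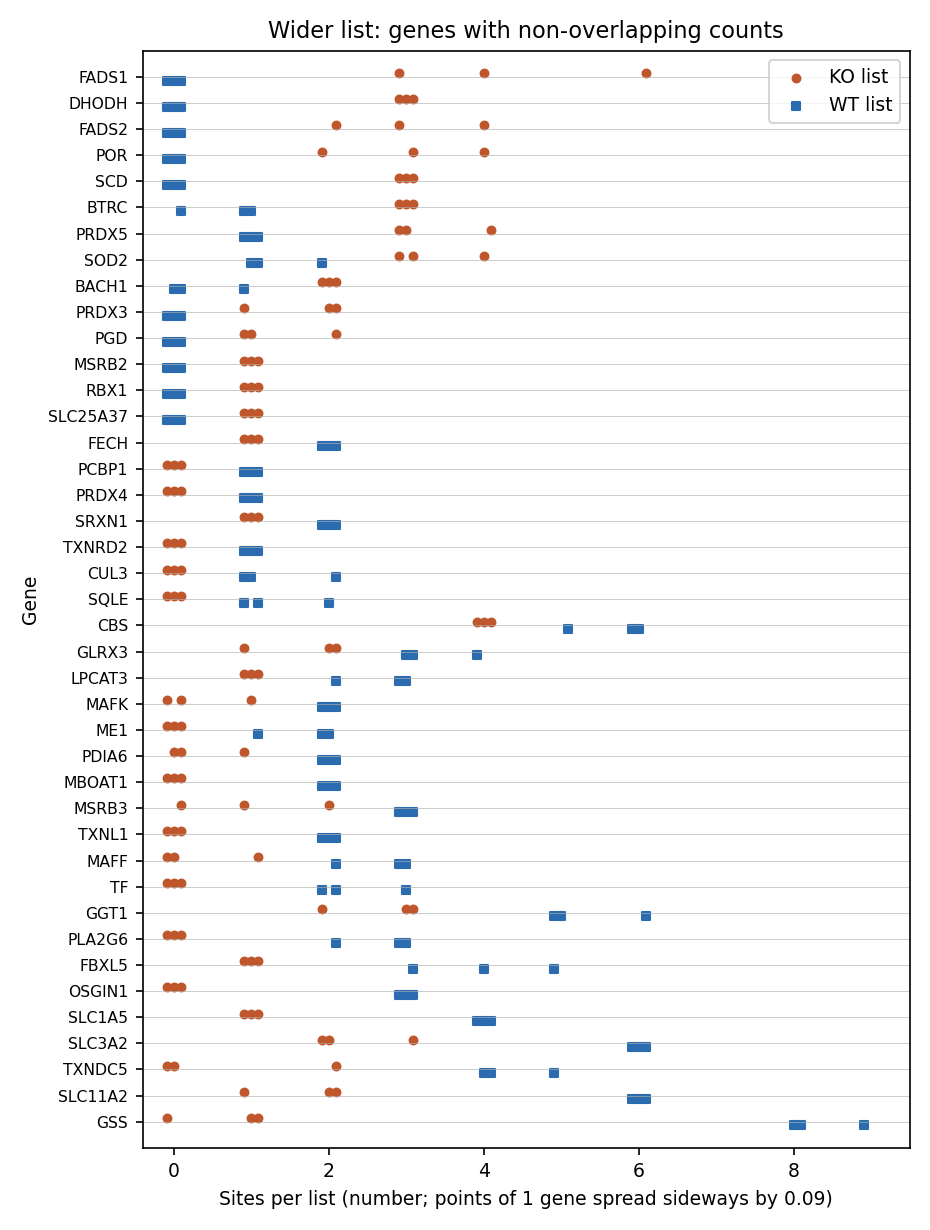
Sites per list for the 41 genes of the wider list whose counts do not overlap between genotypes, ordered by the difference of KO minus WT, with 1 circle per KO list and 1 square per WT list (points of 1 gene are spread sideways so that all can be seen). FADS1 stands at the top with 3 to 6 sites in KO and none in WT, and GSS at the bottom with 0 or 1 in KO and 8 or 9 in WT.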

How the data were processed

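ac4C-RIP-seq was run on 12 HK-2 samples, and 6 deposited site lists, 1 per IP and input pair, were used here. Cutadapt 1.9.3, HISAT2 2.0.4 and hg38 are named, without roles, per the submitters' processing notes. Sites were called with MACS and not pooled over replicates, per the file headers and peak names. The deposited score is 10 times the negative log10 of a site's p-value, the fold enrichment is the authors' ratio of IP over input, and the false discovery rate is in percent, as the authors gave it, per the file headers. The score was at least 50 and the fold at least 2 in every list.

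In KO replicate 1 the coordinate and gene columns stand in different row orders: 1 of 13818 rows matched as deposited. They were rejoined on equal score and length, ties being settled by the gene's chromosome and then by where its sites lay in the other lists, which paired 13788 rows. The transcript part was read beside the coordinates. The join was tested on the other lists with their gene columns shuffled, and the permutation test on simulated counts. Starts are printed 1 higher than in the files. Only 12.7% to 13.1% of sites lay inside their gene's GRCh38.p14 span (1 of the 22 regions of the 10 genes), so the coordinates are not of GRCh38, and no source used here names their build. Over the lists, 17 empty rows were not analysed here.

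Sites per gene were compared between 3 KO and 3 WT lists with exact permutations, two-sided (smallest p 0.1), with Benjamini-Hochberg adjustment over all genes. Counts without overlap are those where every KO list lies above, or below, every WT list. All 10 genes are named. Of the wider list, every gene without overlap is named, with values for at most 4 per direction and group, apart from ties. The 10 genes and all gene lists were chosen with earlier results of these data known. Alternatives were a fold of at least 4, a score of at least 100, lists of equal length, updated gene names, a wider overlap, a replicate block and leaving out each list. Same-numbered lists were not taken as pairs. Python 3.11.15, pandas 2.3.3 and NumPy 2.4.6 were used.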

Additional observations from a re-analysis of the deposited data

How the results depend on the processing

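The 5 genes of the 10 without overlap were GPX4, AIFM2, TXN, TXNRD1 and TFRC. Their direction and lack of overlap held at a fold of at least 4 and at a score of at least 100. Both also held with equal list length and updated gene names. Leaving out 1 list cannot end a lack of overlap, so it was no test of these 5 genes. Without WT replicate 3, HMOX1 joined the genes with more KO sites and SLC7A11 those with fewer. The number of the 10 genes with a site per list, KO minus WT, was -0.333 and turned to 0.333 under the fold setting, 0.333 under the score setting and 1 with equal list length. Regions called in all lists numbered 1, but 0 with a fold of at least 4, and between 1 and 2 when 1 list was left out (2 without KO replicate 1 or WT replicate 1). The share of coding sites, 60.0% in KO and 58.6% in WT, was 50% in KO and 63.6% in WT with each region counted once, which widens and turns the difference. That WT share takes a KEAP1 region by its coding label in WT replicate 1, not its start codon label in the other WT lists. With a fold of at least 4 the shares were 64.0% and 65.4%. Of the 41 named genes of the wider list, 36, 32, 35 and 41 kept their lack of overlap with a fold of at least 4, a score of at least 100, equal list length and updated names. GLRX3, PRDX4, RBX1 and LPCAT3 lost it under the first 3, PGD under the fold setting, TXNDC5 and MSRB3 under the score and equal length settings, and TXNL1, TXNRD2 and SRXN1 under the score setting. The GLRX3 difference turned from -1.67 to 1 with a fold of at least 4. A replicate block exchanges signs within same-numbered pairs and allows no p under 0.25. With it, 3 of the 10 genes had more and 2 fewer KO sites in all 3 pairs. Over all genes the numbers were 2557 and 2506, against 2426 and 2367 without it. Counts without overlap differ in the same direction in every pair, so the block could not lower these numbers. The deviations of same-numbered lists correlated at -0.0845, 0.00274 and -0.0779 over 10240 genes, so the numbers give no pairing. With no reads in the files, depth limits every absent site: a site below the callers' threshold is not listed.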

Other observations

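Some genes of the wider list with fewer KO sites carried a single KO site of high fold. They were picked after their values had been seen. FECH held 1 site in each KO list, with folds of 90.2, 42.4 and 79.7, and 2 sites in each WT list, with highest folds of 8.96, 9.42 and 7.37. SRXN1, the sulfiredoxin that repairs overoxidized peroxiredoxins, held 1 KO site per list at folds of 113, 112 and 140 and 2 WT sites per list with highest folds of 11.02, 11.22 and 9.70. FBXL5 held 1 KO site per list at folds of 78.6, 44.3 and 39.7, and its highest WT folds were 9.12, 9.15 and 10.9. Folds are the authors' own within each IP and input pair and were not tested between lists. FADS2 and DHODH, with sites in the KO lists alone, had highest folds of 799, 590 and 904 and of 644, 1317 and 1308. High folds were also found on the WT side. SOD3 held 1 site in every list, at folds of 11498.5, 7656.09 and 10497.7 in WT and 13.1, 8.07 and 18.7 in KO. The highest folds of TMEM189 were 388, 525 and 428 in WT and 7.97, 10.8 and 11.2 in KO. CUL3, with sites in the WT lists alone, had highest folds of 209, 248 and 226.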
